A study of Mus musculus with 22 samples.

Results

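Fatty acid and triglyceride synthesis was followed here through 36 genes in the striatum and the white adipose tissue (WAT) of mice given thyroid hormone (TH). The members were the enzymes that build, extend, desaturate and esterify fatty acids, those that supply NADPH, and 5 regulators. They were taken from a list of symbols chosen with earlier results of these data known. Each was kept in a tissue where its mean normalised count over all libraries of that tissue was above 10. All 36 passed in WAT, among 17928 genes tested, and 34 passed in striatum, among 15827. Scd3 and Mogat1 were below the mean in striatum, where Scd3 ranged over the 3 groups from 4.89 to 19.8 and Mogat1 from 0 to 1.81 normalised counts.

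The animals were labelled as male wild-type C57BL/6J mice, 8 weeks old. Controls had received propylthiouracil (PTU), which blocks the synthesis of TH, for 2 weeks. WAT was collected from these controls and at 6 h or 24 h after TH, with 4 libraries each, and striatum from 2 controls and from 4 animals each at 12 h and 24 h after TH. The labels of the TH libraries do not mention PTU, the series describes hypothyroid mice throughout, and the study's overview lists 1 injection of T3 and T4 for both tissues but PTU feeding for WAT alone. Whether the striatum TH animals had received PTU is therefore not known here. No source used here names the fat depot or says whether animals were pooled, so that p-values measure the spread between these libraries.

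In lipogenic tissues, citrate that leaves the mitochondria is cleaved to acetyl-CoA, carboxylated to malonyl-CoA and built into palmitate with electrons from NADPH. The fatty acids are then elongated, desaturated and attached in steps to glycerol, and the last acylation gives the triglyceride stored in fat cells. The transcription factors SREBP1 (Srebf1) and ChREBP (Mlxipl) drive these genes in response to insulin and to glucose, and TH is a classical inducer of several of them, among them Thrsp and Me1 in liver. In brain, the same enzymes serve membrane and myelin lipids.

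WAT libraries held 17.3 to 26.96 M counts and striatum libraries 8.06 to 10.2 M. Hr and Klf9, 2 genes induced by TH in many tissues, passed the test of each time against PTU in both tissues. All 12 WAT libraries had counts of the Y-linked gene Ddx3y, with at most 8.73 normalised counts of Xist. In striatum, all 4 libraries at 24 h, 1 at 12 h and 1 of PTU had at most 1.19 of Ddx3y and over 1000 of Xist, against the male label. Striatum 24 h replicate 2 held 31.4 normalised counts of Drd2, a gene of striatal projection neurons, and 12586 of the cortical gene Slc17a7, where the other groups held 1313 to 2062 (PTU) and 832 to 1421 (12 h) of Drd2 and 1814 to 3509 and 5026 to 9196 of Slc17a7. The adipocyte genes Adipoq and Plin1 were abundant in every WAT library (Plin1 at 19707 to 24250.0 in PTU and 10861 to 15233 normalised counts at 24 h). Results that rest on libraries set apart by these genes or by the members themselves are given below with and without them.

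The promoters of 3 of the members that rose in WAT are shown as examples of their sequence context. RefSeq windows (GRCm38.p6) of the 250 bases before a start site were found for 31 of the 36 members, as 40 windows, since some genes have several starts (no entry: Scd1, Scd2, Fads1, Dgat1, Dgat2). Each was searched on both strands for the E box CACGTG, the nuclear receptor half-site AGGTCA, the same half-site repeated after a spacer of 4 bases (which contains the single half-site) and the CCAAT box CCAAT. Capitals mark any of these letters, read on either strand. Thrsp lies on the minus strand and its window is chr7:97417551-97417800. Mlxipl and Elovl5 lie on the plus strand. The upstream start of Mlxipl has the window chr5:135089640-135089889 and the downstream start chr5:135106641-135106890, and Elovl5 has chr9:77917115-77917364.
Thrsp: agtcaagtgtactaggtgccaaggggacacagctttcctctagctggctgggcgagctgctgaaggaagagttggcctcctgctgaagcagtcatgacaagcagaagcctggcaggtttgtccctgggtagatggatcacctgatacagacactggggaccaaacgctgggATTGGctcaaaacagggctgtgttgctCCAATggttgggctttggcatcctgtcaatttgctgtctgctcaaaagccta
Mlxipl upstream start: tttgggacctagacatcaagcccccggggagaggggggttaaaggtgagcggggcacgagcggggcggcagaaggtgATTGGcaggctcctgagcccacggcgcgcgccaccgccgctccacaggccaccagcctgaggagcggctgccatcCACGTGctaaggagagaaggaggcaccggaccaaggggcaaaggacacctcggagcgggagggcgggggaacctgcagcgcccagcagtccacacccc
Mlxipl downstream start: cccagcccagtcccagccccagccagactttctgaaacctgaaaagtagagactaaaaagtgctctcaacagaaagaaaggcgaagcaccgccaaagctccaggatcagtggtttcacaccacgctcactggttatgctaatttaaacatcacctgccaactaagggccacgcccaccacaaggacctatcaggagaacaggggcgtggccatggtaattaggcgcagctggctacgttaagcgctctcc
Elovl5: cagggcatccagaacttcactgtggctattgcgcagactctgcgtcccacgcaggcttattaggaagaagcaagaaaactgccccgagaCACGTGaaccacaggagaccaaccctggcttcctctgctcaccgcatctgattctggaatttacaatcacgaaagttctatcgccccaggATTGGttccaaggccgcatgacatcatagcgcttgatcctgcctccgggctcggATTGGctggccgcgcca
The upstream start of Mlxipl and the Elovl5 window each held 1 E box, and the Thrsp window held 2 CCAAT boxes and none of the other motifs. Of the other members called higher at 24 h in WAT that have a window, none held an E box. Elovl6 held 1 half-site, Acacb and Pnpla3 held 1 CCAAT box each, and Tkt and Scd3 held none of the motifs. Over the 40 member windows, 4 held the E box against 6.02% of all 32851 windows of the same length, 5 held the half-site against 14%, and 17 held the CCAAT box against 33.8%. The spaced repeat was in none of the 40 member windows and in 0.0152% of all windows. These matches describe letters and were not tested against the measured changes. Counts per gene do not separate the 2 starts of Mlxipl.

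At 24 h after TH, 10 of the 36 members passed the test against PTU in WAT. Mlxipl and Thrsp among the regulators, Acacb, Tkt, the desaturases Scd1 and Scd3, the elongases Elovl5 and Elovl6, and Pnpla3 rose by 0.83 to 1.90 on the log2 scale, whereas Dgat1, which attaches the last fatty acid of a triglyceride, fell by 1.17. Fasn, Acaca and Acly, the enzymes that make palmitate from citrate, did not pass the test. A member was called at an adjusted p under 0.05 in edgeR's quasi-likelihood test, adjusted by Benjamini and Hochberg over all genes tested in the tissue, with no minimum fold change. Errors of log2 changes below are standard errors of the fit (n = 4 per group in WAT). The 9 members higher made up 25% of the list, where 7.45% of all genes were called higher, and the 1 member lower stands beside 9.62% of all genes. Scd3, with the largest change (1.90), is among the 9, and its values are uncertain as described below. In both directions together 27.8% of members and 17.1% of genes were called. The PTU and 24 h libraries of 8 members did not overlap, 22.2% of the list beside 19.3% of all genes, and 30.6% of members had an unadjusted p under 0.05, beside 32% of genes. The members' median log2 change was 0.27, beside -0.0020 over all genes tested. Since the list was chosen with earlier results of these data known, these shares describe the list and do not test the pathway against all genes.

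**Figure D1:**
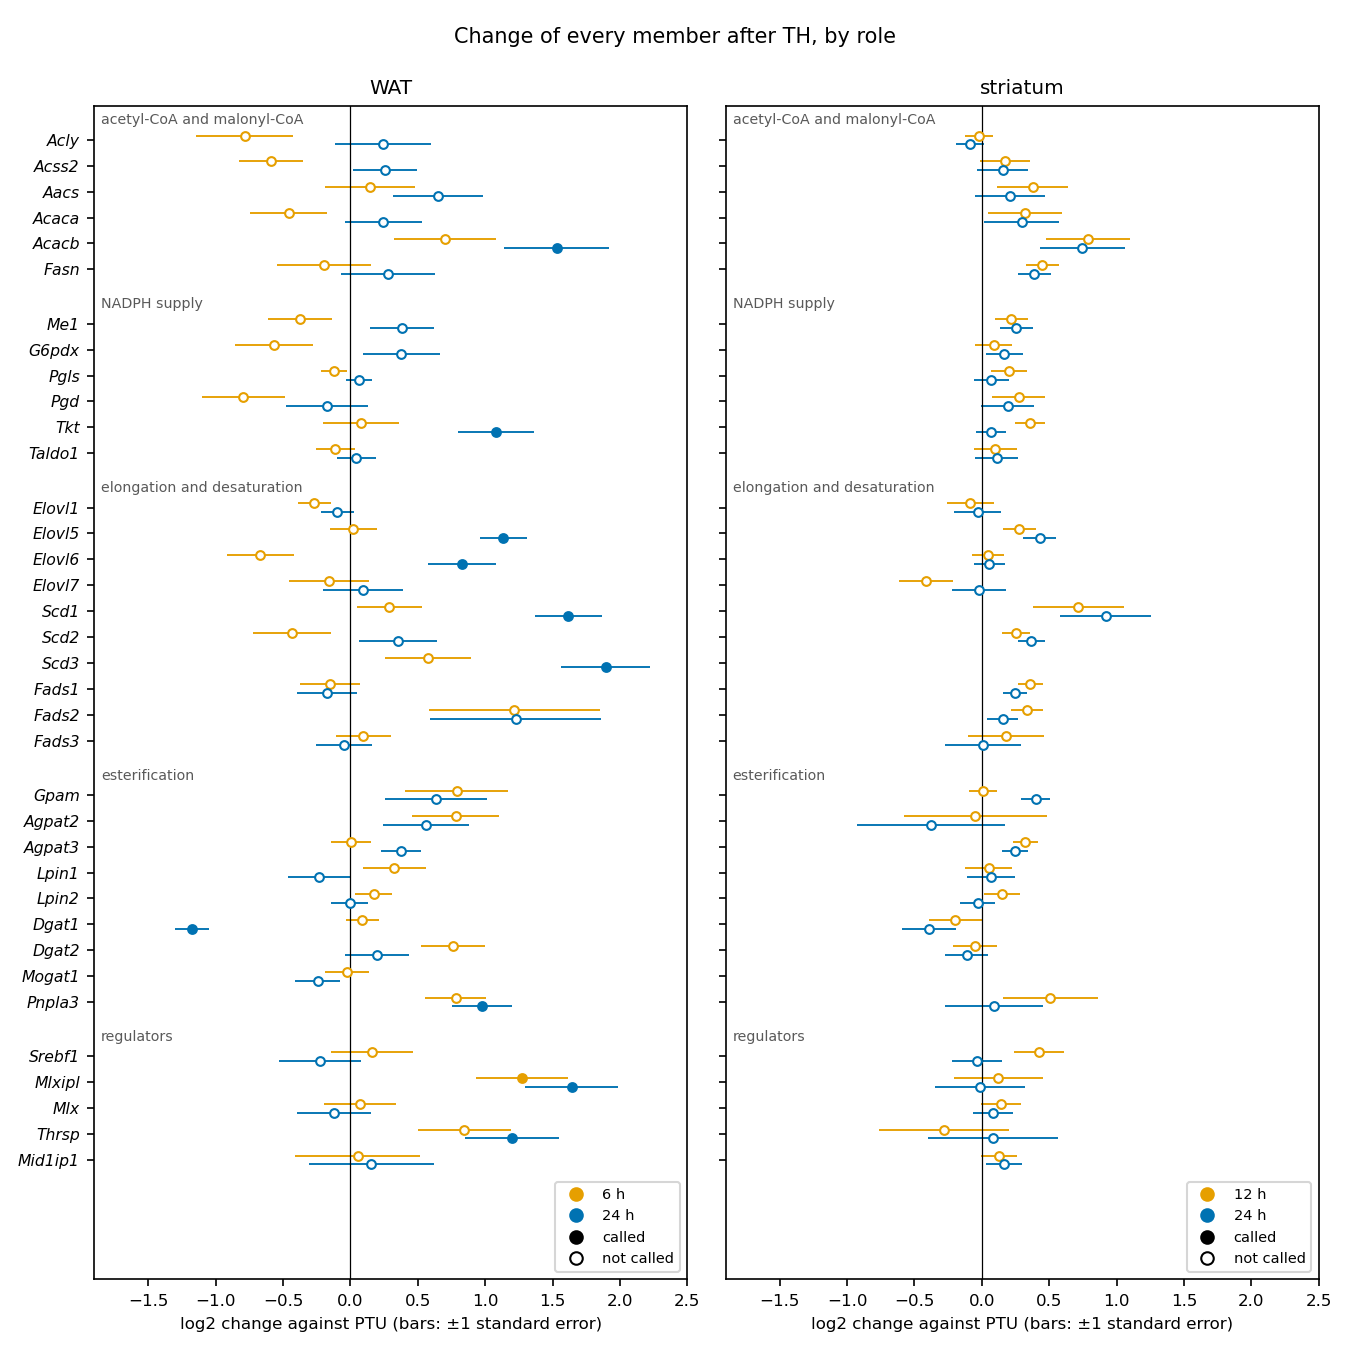
Log2 change against PTU (x axis) of every member tested, grouped by role, in WAT at 6 h and 24 h and in striatum at 12 h and 24 h; bars are 1 standard error and filled points were called. In WAT, 1 point is filled at 6 h (Mlxipl) and 10 at 24 h, of which Dgat1 alone lies below 0, and no point is filled in striatum.

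At 6 h, Mlxipl was the only member called of 36 in WAT (2.78%), where 7.23% of all genes were called, 4.18% higher and 3.05% lower. The libraries of 3 members did not overlap with PTU, 8.33% of the list beside 13.9% of all genes. At an unadjusted p under 0.05 there were 5 members higher and 5 lower, together 27.8% of the list beside 25.4% of all genes. Between 6 h and 24 h, 5 members were called (13.9%), Elovl6, Scd1, Scd3 and Elovl5 higher and Dgat1 lower, where 7.41% of all genes were called, 3.07% higher and 4.35% lower. In that comparison 8 members did not overlap, 22.2% beside 21.8%. The 3 comparisons share libraries and are therefore not independent of each other. In these bulk samples, fewer cells of a type and less RNA per cell cannot be told apart.

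**Figure D2:**
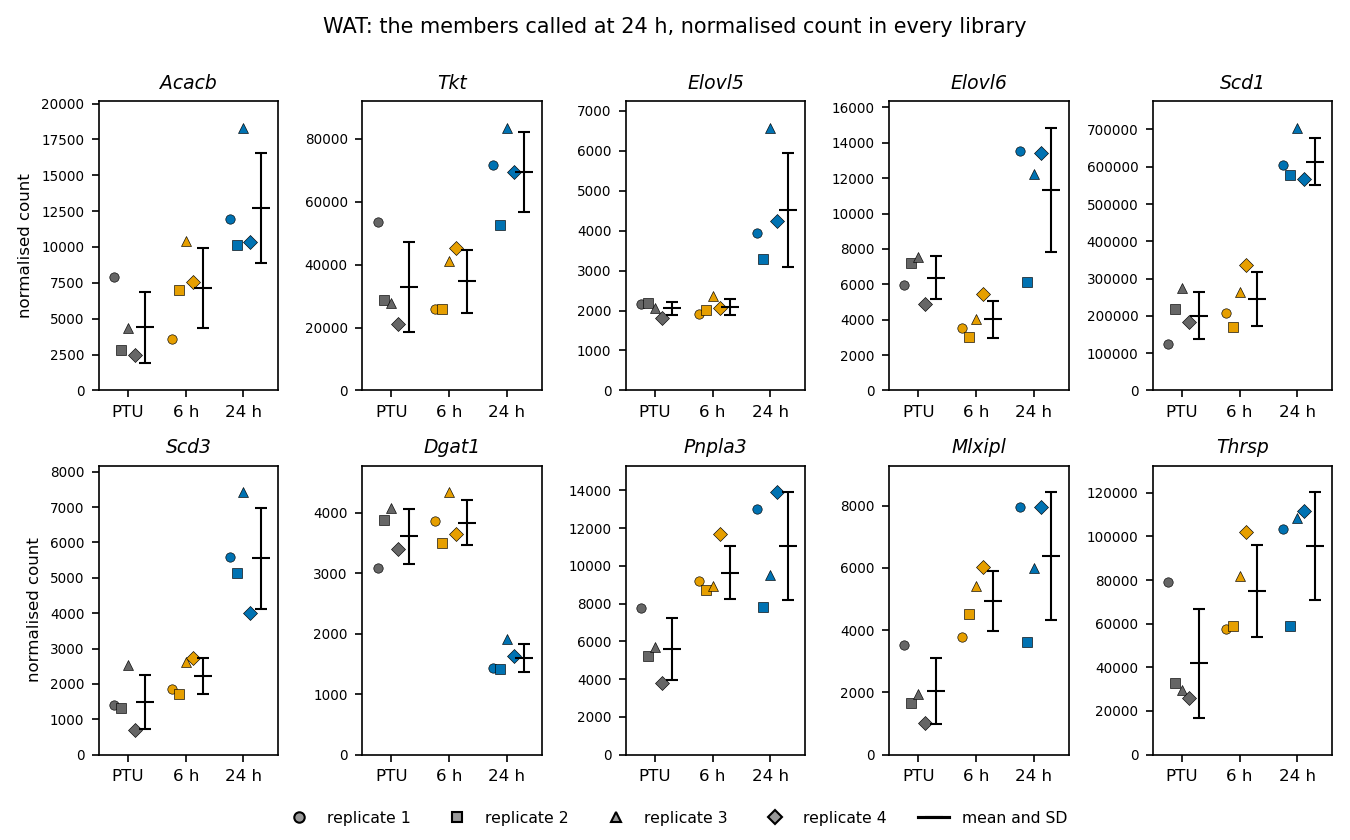
Normalised count (y axis, from 0) in each WAT library for the 10 members called at 24 h, with PTU, 6 h and 24 h side by side; symbols give the replicate number and the black mark the mean with its SD (n = 4). All 4 libraries at 24 h lie above every PTU library for Acacb, Elovl5, Scd1, Scd3, Pnpla3 and Mlxipl, and below every PTU library for Dgat1.

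Among the regulators, Mlxipl (chr5:135089890-135138382, plus strand, GENCODE M21 on GRCm38, as for the positions below) encodes ChREBP, which responds to glucose. Its exons overlap Gm43500 on the opposite strand, and the strand setting of the counting was not stated. Its normalised counts in the 4 PTU libraries were 3526, 1670.1, 1957 and 1014. They were 3791, 4531, 5401 and 6020.1 at 6 h and 7955, 3608, 5992 and 7954 at 24 h. Every library after TH was above the highest PTU library, with the lowest at 24 h, replicate 2, close to it. Mlxipl changed by 1.27 ± 0.34 on the log2 scale at 6 h (edgeR, adjusted p = 0.0413) and 1.64 ± 0.34 at 24 h (adjusted p = 0.00679). The call at 24 h held with each of the 12 WAT libraries left out in turn. The call at 6 h held with only 3 of them left out, and without PTU replicate 2 its adjusted p was 0.110.

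Thrsp (Spot 14, chr7:97412938-97417730) encodes a small nuclear protein of lipogenic tissues and a classical TH response gene. PTU libraries had 78963, 32888, 29419 and 25794 normalised counts of it. After TH it was at 57400.3, 59136, 81784 and 101867 at 6 h and at 103439, 59027, 108569 and 111849 at 24 h. All libraries after TH were above PTU replicates 2, 3 and 4, and the groups overlapped through PTU replicate 1. The log2 change was 0.85 ± 0.35 at 6 h, not called (edgeR, adjusted p = 0.155), and 1.20 ± 0.35 at 24 h (adjusted p = 0.0341). Without PTU replicate 1 the change at 24 h was 1.70 and that at 6 h was called too (adjusted p = 0.00744). The call at 24 h was lost with any 1 of 6 other libraries left out, with an adjusted p of up to 0.101 without PTU replicate 2.

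Srebf1 encodes SREBP1, which responds to insulin, and was not called. Its values were 11290.2, 7463, 7458 and 6201 in PTU, 6219, 8942, 10992 and 10020.2 at 6 h and 8729.9, 2978, 7545 and 8496 at 24 h. The 3 groups overlapped, and 24 h replicate 2 was the lowest of the 12 libraries. The log2 change at 24 h was -0.22 ± 0.30 (edgeR, adjusted p = 0.643). Mlx, the partner of ChREBP on DNA, had log2 changes of 0.071 at 6 h and -0.12 at 24 h. Mid1ip1, the paralog of Thrsp that promotes assembly of acetyl-CoA carboxylase, had 0.056 and 0.16. Neither passed the test, and PTU replicate 1 had the highest value of its group for both (1456 and 4228 normalised counts).

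Of the 6 enzymes from acetyl-CoA to palmitate, only Acacb (chr5:114146535-114250761) was called, at 24 h (16.7% of the 6, beside 17.1% of all genes). It encodes the acetyl-CoA carboxylase at the mitochondrial surface, whose malonyl-CoA restrains the entry of fatty acids for oxidation. It was at 7921, 2792, 4375 and 2486 normalised counts in PTU, 3572, 7014, 10436 and 7564 at 6 h and 11949, 10147, 18323 and 10342 at 24 h. The 24 h libraries were all above the PTU libraries, and the 6 h libraries overlapped both groups. On the log2 scale the difference from PTU was 0.70 ± 0.38 at 6 h (edgeR, adjusted p = 0.268) and 1.53 ± 0.39 at 24 h (adjusted p = 0.0179). The call was lost without PTU replicate 2 or without 24 h replicate 3 (adjusted p up to 0.0581).

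Fasn encodes fatty acid synthase, which builds palmitate. PTU libraries held 269901, 106756, 156619 and 75631 normalised counts of it, 6 h libraries 104045, 121391, 145747 and 161132 and 24 h libraries 211875, 105464, 240202 and 179817. PTU replicate 1 was the highest of all 12 libraries, 24 h replicate 2 was within the range of the other PTU libraries, and the groups overlapped. Fasn gave a log2 change of -0.19 ± 0.35 at 6 h and 0.28 ± 0.35 at 24 h (edgeR, adjusted p = 0.617).

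Acaca, the cytosolic acetyl-CoA carboxylase, was at 39005, 22611, 26296 and 14707 in PTU, 14897, 15968, 19460.0 and 24309 at 6 h and 34376, 18738, 36491 and 32027 at 24 h. Acly, which cleaves citrate to acetyl-CoA, was at 79737, 37246, 36940.0 and 23268 in PTU, 20478, 18512, 28261 and 35610.1 at 6 h and 61660.0, 28662, 61666 and 57664 at 24 h. For both, PTU replicate 1 was above every 24 h library and the groups overlapped. At 24 h the log2 changes were 0.25 ± 0.28 for Acaca and 0.24 ± 0.36 for Acly, and at 6 h they were -0.46 ± 0.28 and -0.78 ± 0.36, none called. Acss2, which activates acetate, was at -0.59 and 0.25 at the 2 times, and Aacs, which activates acetoacetate, at 0.14 and 0.65. From 6 h to 24 h all 6 of these enzymes had positive log2 changes, from 0.47 for Fasn to 1.03 for Acly, of which none passed the test over all genes and 4 had an unadjusted p under 0.05 (24.1% of all genes had).

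**Figure D3:**
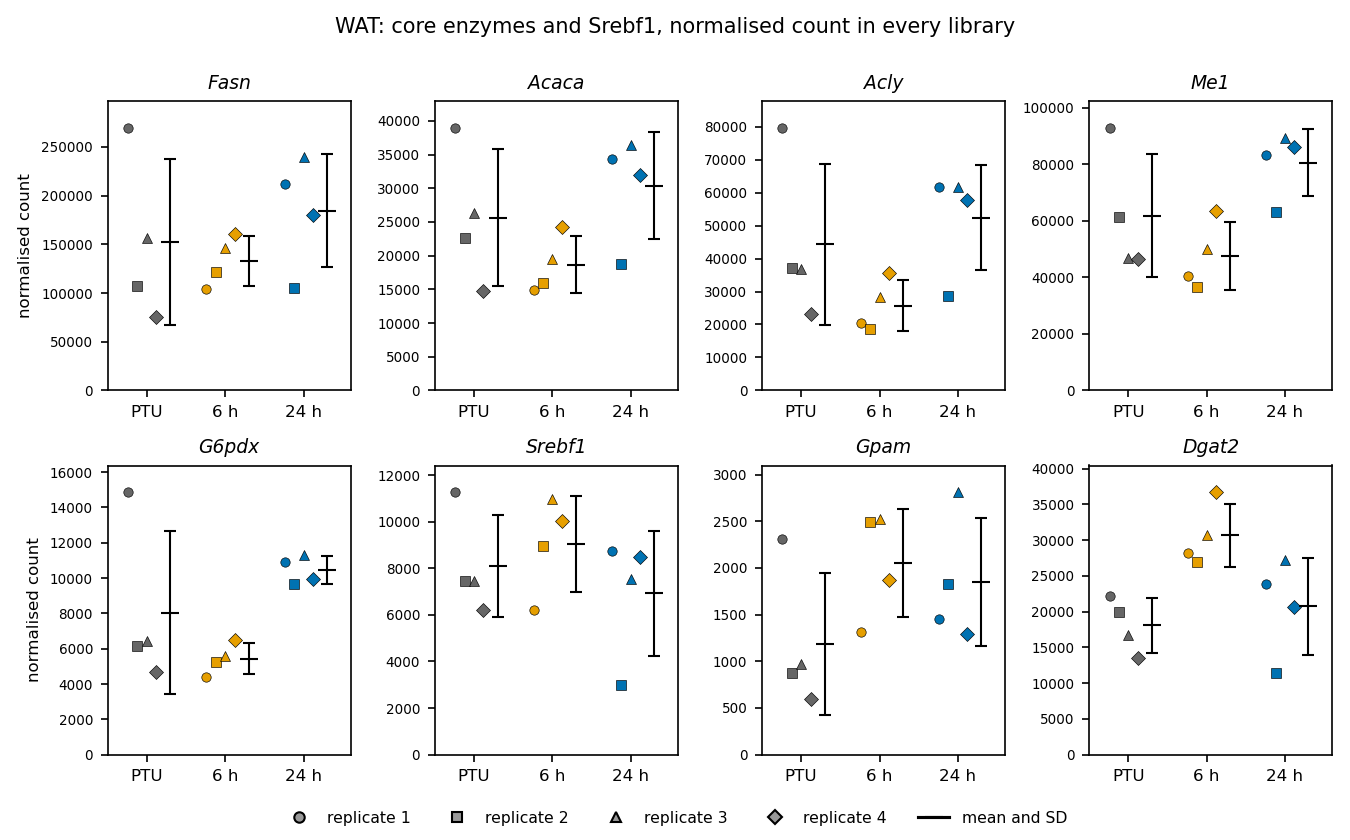
Normalised count (y axis, from 0) in each WAT library for Fasn, Acaca, Acly, Me1, G6pdx, Srebf1, Gpam and Dgat2, drawn as in the plot of the called members. PTU replicate 1 (circle) is the highest PTU library in every panel, 24 h replicate 2 (square) is the lowest at 24 h in every panel except Gpam, and the PTU and 24 h groups overlap in every panel.

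Of the 6 genes of NADPH supply, Tkt (chr14:30548359-30574720) alone was called, at 24 h (16.7% of the 6, beside 17.1% of all genes). Transketolase belongs to the branch of the pentose phosphate pathway that rearranges sugars and makes no NADPH itself. Tkt was at 53575, 28712, 27928 and 21003 normalised counts in PTU, 26004, 25943, 41293 and 45351 at 6 h and 71761, 52763, 83586 and 69484 at 24 h. The 24 h libraries were above all 6 h libraries, and all but 24 h replicate 2, which lay just under PTU replicate 1, were above every PTU library. The annotated microRNA gene Mir3076 lies within its exons on the same strand. The log2 change at 24 h was 1.08 ± 0.28 (edgeR, adjusted p = 0.0212), and that at 6 h was 0.079 ± 0.28. The call was lost without PTU replicate 2, without PTU replicate 3 or without 24 h replicate 3 (adjusted p up to 0.0665). Malic enzyme, encoded by Me1, yields NADPH in the cytosol and had 92938, 61209, 46812 and 46365 normalised counts in PTU. Its values were 40614, 36402, 49962 and 63441 at 6 h and 83287, 63038, 89217 and 86204 at 24 h. The 24 h libraries overlapped PTU through PTU replicate 1, the highest library of all, and the 6 h libraries overlapped both groups. The log2 change of Me1 was -0.38 ± 0.24 at 6 h and 0.38 ± 0.24 at 24 h (edgeR, adjusted p = 0.293). G6pdx and Pgd, whose enzymes make NADPH in the oxidative branch, had 0.38 and -0.18 at 24 h. Pgls had -0.12 at 6 h and 0.061 at 24 h and Taldo1 -0.11 and 0.044, and none of these 4 genes was called. Without PTU replicate 1, G6pdx and Me1 were called higher at 24 h (adjusted p = 0.00239 and 0.0365).

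Of the 10 members of elongation and desaturation, 4 were called at 24 h, all higher (40%, beside 7.45% of all genes). Scd3, uncertain as described below, is among these 4. The share called higher among the 5 regulators was the same, 40%. Scd1 (chr19:44394455-44407879) encodes the main stearoyl-CoA desaturase of fat and liver, which puts the first double bond into saturated fatty acids. The PTU libraries had 123561, 217127, 274029 and 184776 normalised counts and the 6 h libraries 208589, 168792, 262714 and 336493. The 24 h libraries had 604677, 577299, 705101 and 567563, and the lowest of them was above every library of the other groups. PTU replicate 1, high for most members, was the lowest of all for Scd1. The log2 change was 0.29 ± 0.24 at 6 h, 1.62 ± 0.25 at 24 h (edgeR, adjusted p = 0.00110) and 1.33 ± 0.25 from 6 h to 24 h (adjusted p = 0.00912). Scd1 took 0.528% to 1.34% of the counts of a PTU library and 2.66% to 3.14% of those of a 24 h library, where all 36 members took 2.2% to 4.07% and 4.81% to 6.90%.

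Scd3 (chr19:44203269-44244016), a desaturase of the same family, was at 1408, 1329, 2534 and 689.9 in PTU, 1848, 1709, 2615 and 2724 at 6 h and 5597, 5147, 7433 and 4015 at 24 h. All 24 h libraries were above all others, and PTU and 6 h overlapped. The log2 change at 24 h was 1.90 ± 0.33 (edgeR, adjusted p = 0.00238). The 2 genes share 3.42% of the 50-base runs of Scd1 transcripts and 4.77% of those of Scd3, and reads that lie within these runs cannot be assigned to 1 gene by sequence. The counts of Scd3 were 0.373% to 1.14% of those of Scd1 in PTU, 0.809% to 1.01% at 6 h and 0.707% to 1.05% at 24 h, all smaller than the shared share of Scd1. Alignments of quality under 10 were removed, but how reads that match several genes were counted is not stated otherwise. The Scd3 values, with their call, are therefore uncertain, and the part of Scd1 reads in them was not tested. Among WAT rows with a mean count above 100, 235 pairs agreed within 2% in every library, none of them with a member. Scd2, the form prominent in brain, had -0.43 at 6 h and 0.35 at 24 h and was not called.

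Elovl5 (chr9:77917364-77984519) encodes the elongase of polyunsaturated fatty acids. Its PTU values were 2154, 2192, 2059 and 1826, and those at 6 h were 1918, 2013, 2359 and 2067. At 24 h they were 3939.5, 3301, 6584 and 4247, all above both other groups. Its log2 change was 0.022 ± 0.17 at 6 h and 1.13 ± 0.18 at 24 h (edgeR, adjusted p = 0.00117). Elovl6 (chr3:129532355-129638495), which extends palmitate to stearate, had 4871 to 7526 normalised counts in PTU, 3043 to 5434 at 6 h and 6115 to 13547 at 24 h, with 24 h replicate 2 inside the PTU range. Its log2 change was -0.67 ± 0.25 at 6 h, 0.83 ± 0.25 at 24 h (edgeR, adjusted p = 0.0395) and 1.5 ± 0.26 from 6 h to 24 h (adjusted p = 0.00559). The call from 6 h to 24 h held with every WAT library left out, whereas the call against PTU was lost with any 1 of 8 libraries left out (adjusted p up to 0.102, without 24 h replicate 1). Elovl6 overlaps an annotated gene on the opposite strand, Gm35986.

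Fads2, the delta-6 desaturase, had a log2 change of 1.23 ± 0.64 at 24 h that was not called (edgeR, adjusted p = 0.207). Its values at 6 h were 167, 176, 1476 and 213, with replicate 3 far above the others. The 6 stratified epithelium genes summed to 2945 in that library, beside 1547, 143 and 438 in the other 6 h libraries, 233 to 531 in PTU and 63.1 to 125 at 24 h, where 2 of 5 tested were called lower than in PTU. Their part in the Fads2 value was not tested. Its 24 h values of 345 to 622 were all above the PTU values of 113 to 284. Without 6 h replicate 3 the adjusted p at 24 h was 0.00932. Fads1, the delta-5 desaturase, Fads3, Elovl1 and Elovl7 had log2 changes between -0.17 and 0.10 at 24 h and were not called.

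In the steps that attach fatty acids to glycerol, 2 of 9 members were called at 24 h (22.2%, beside 17.1% of all genes), in opposite directions. Dgat1 (chr15:76502015-76511953) was at 3088, 3874, 4074 and 3393 normalised counts in PTU and at 3858, 3496, 4345 and 3648 at 6 h. At 24 h it was at 1429, 1419.8, 1919 and 1628, and the highest of these was below every library of the other groups. The log2 change was 0.089 ± 0.12 at 6 h, -1.17 ± 0.13 at 24 h (edgeR, adjusted p = 9.39e-05) and -1.26 ± 0.13 from 6 h to 24 h (adjusted p = 0.000193). Both calls at 24 h, against PTU and against 6 h, held whichever WAT library was omitted.

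Dgat2, a protein unrelated in sequence that catalyses the same step, had 22219, 19976, 16725 and 13472 normalised counts in PTU. It had 28168, 26906, 30757 and 36762 at 6 h, all above the PTU libraries, and 23923, 11426, 27163 and 20583 at 24 h, overlapping both groups. Its log2 change was 0.76 ± 0.24 at 6 h (edgeR, adjusted p = 0.0745) and 0.20 ± 0.24 at 24 h (adjusted p = 0.593), neither called. Dgat2 at 6 h passed the test without PTU replicate 1 or without 24 h replicate 2 (adjusted p down to 0.0162).

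Pnpla3 (chr15:84167837-84187236) encodes a lipid droplet protein that rises with feeding. It was at 7763, 5219.7, 5680.2 and 3799 in PTU, 9197, 8750.2, 8932 and 11714 at 6 h and 12999, 7819.5, 9519.7 and 13903 at 24 h, with all libraries after TH above the PTU libraries, by a narrow margin at 24 h. The log2 change was 0.78 ± 0.22 at 6 h (edgeR, adjusted p = 0.0544) and 0.98 ± 0.22 at 24 h (adjusted p = 0.0112). Its exons overlap those of another annotated gene, Gm49513, on the same strand.

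Gpam, the mitochondrial enzyme that attaches the first fatty acid to glycerol 3-phosphate, was at 2307, 873, 971 and 600.1 in PTU. It was at 1316, 2493, 2529 and 1876 at 6 h and 1457, 1825, 2817 and 1296 at 24 h, above PTU replicates 2, 3 and 4 in every library and overlapping the PTU group through replicate 1. The log2 changes of 0.79 ± 0.38 and 0.64 ± 0.38 were not called (edgeR, adjusted p = 0.215 and 0.270). Agpat2, which attaches the second fatty acid, had 0.78 ± 0.32 at 6 h and 0.56 ± 0.32 at 24 h, not called. Without PTU replicate 1, Gpam and Agpat2 were called higher at both times (adjusted p from 0.0152 to 0.0430). Agpat3, Lpin1 and Lpin2, whose enzymes work on the intermediates of the same chain, and Mogat1 had log2 changes between -0.24 and 0.38 at 24 h.

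The count of members called in WAT moved with single libraries. PTU replicate 1 was the highest of its group for 28 of the 36 members, where it was the highest for 28.1% of all genes, and 24 h replicate 2 was the lowest of its group for 27 members, where it was the lowest for 30.5% of all genes. PTU replicate 4 was the lowest of its group for 28 members (32.9% of all genes). Without PTU replicate 1, 7 members were called at 6 h and 14 at 24 h (13 higher). In the same fit the calls over all genes also increased, from 1296 to 1898 at 6 h and from 3060 to 4264 at 24 h. Without that library and 24 h replicate 2 together, a choice made after the members' values were seen, 8 were called at 6 h and 19 at 24 h, of which 18 were higher, Fasn and Acly among them. In the other direction, without PTU replicate 4, which was low for most members, 8 members were called at 24 h, and the log2 changes of Fasn, Acly and G6pdx were 0.062, 0.042 and 0.20, beside 0.28, 0.24 and 0.38 with all libraries. There were 6 members called at 24 h without PTU replicate 2 or without 24 h replicate 3. Over all genes, 1957 were called at 24 h without PTU replicate 2, beside 3060 with all libraries. Mlxipl, Scd1, Scd3, Elovl5, Pnpla3 and Dgat1 were called at 24 h in every one of the 12 fits with 1 library left out.

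Genes of other cells differed between the same libraries. The 8 skeletal muscle genes summed to 214005 normalised counts in PTU replicate 1 and 517554 in PTU replicate 4 but to 2189.6 and 3774 in the other PTU libraries, and ran from 932 to 95982 at 6 h and from 38558 to 285440.0 at 24 h. None of the 8 was at 0 in a WAT library or was called at 24 h. With their mean log count as a covariate, the same number of members was called at 24 h, 9 higher and 1 lower, and none at 6 h. Of 8 adipocyte genes, 4 fell at 24 h and none rose. Adipoq was at 32295 to 36565 normalised counts at 24 h and at 69711 to 95132 in PTU, and the list summed to 389561 to 477318 at 24 h and to 505990.0 to 674835 in PTU. Of 6 brown adipocyte genes, 4 rose, Ucp1 among them, and their sum ran from 5776 to 19535 at 24 h and from 930.2 to 2382 in PTU. The part of these other genes in the members' changes was not tested beyond the muscle covariate.

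Beyond the members, 43 other genes of the pathway were listed, and 41 were tested in WAT. At 24 h, 4 rose and 6 fell, together 24.4% of them beside 17.1% of all genes. Of those that rose, Lpin3, a phosphatidate phosphatase related to Lpin1, went from 34.5 ± 8.79 normalised counts in PTU to 339 ± 58.2 (SD, n = 4), a log2 change of 3.28 ± 0.19. Scd4, a further stearoyl-CoA desaturase whose sequence shared with Scd1 was not measured, rose by 1.90 ± 0.35 and Acsl5, which activates fatty acids, by 0.62 ± 0.14. Gpat3, an enzyme of the endoplasmic reticulum for the same step as Gpam, fell from 3066 ± 749 to 271 ± 31.6 normalised counts, with a log2 change of -3.50 ± 0.19. Acsl1, the main acyl-CoA synthetase of fat cells, fell with a change of -1.91 ± 0.26, and Insig1, which holds SREBP in the endoplasmic reticulum, with -1.19 ± 0.35. At 6 h, Lpin3, Gpat4 and Fitm2 were called higher and Gpat3 lower, with 1.12 for Gpat4 and -1.35 for Gpat3. These were 9.76% of the 41 tested, beside 7.23% of all genes. In striatum, 1 of 37 tested was called at 12 h (2.7%, beside 0.96% of all genes), Tecr, which completes each round of elongation, with 0.69 ± 0.11. None was called at 24 h, where 0.348% of all genes were.

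Striatum showed no member that passed the test. edgeR called 0 of 34 members at 12 h, where 0.96% of all genes were called, 0 at 24 h (0.348% of genes) and 0 between the 2 times (0% of genes). At an unadjusted p under 0.05 there were 9 members at 12 h and 8 at 24 h, all higher than PTU, 26.5% and 23.5% of the list beside 20.2% and 9.63% of all genes, and 4 between the times beside 14.6%. DESeq2 called 3 members at 12 h (Agpat3, Fads1 and Fasn), 1 at 24 h (Scd2) and 1 between the times (Gpam). The libraries of 12 members did not overlap between 12 h and PTU, 35.3% of the list beside 36.4% of all genes, and those of 8 members did not overlap at 24 h, 23.5% beside 18.2%, and those of 2 did not overlap between the times, 5.88% beside 8.3%. The median log2 change of the members was 0.17 at 12 h and 0.10 at 24 h, beside 0.0076 and 0.016 over all genes.

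Genes of cortical and of striatal neurons differed between the same groups. The 7 cortical excitatory neuron genes summed to 3998 to 7559 normalised counts in PTU and 9796 to 15559 at 12 h, and the 8 projection neuron genes to 34775 to 50596 and 20373 to 33372, neither list overlapping between these groups. At 24 h the sums ran from 5810.0 to 24198 and from 2467 to 54939. Replicates 2 and 4 had cortical sums above the PTU range (24198 and 14140) and projection neuron sums below it (2467 and 25311). Replicates 1 and 3 had cortical sums of 7542 and 5810.0 and projection neuron sums of 50332 and 54939. No gene of either list was called singly at 12 h or 24 h. Their part in the members' values was not tested.

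**Figure D4:**
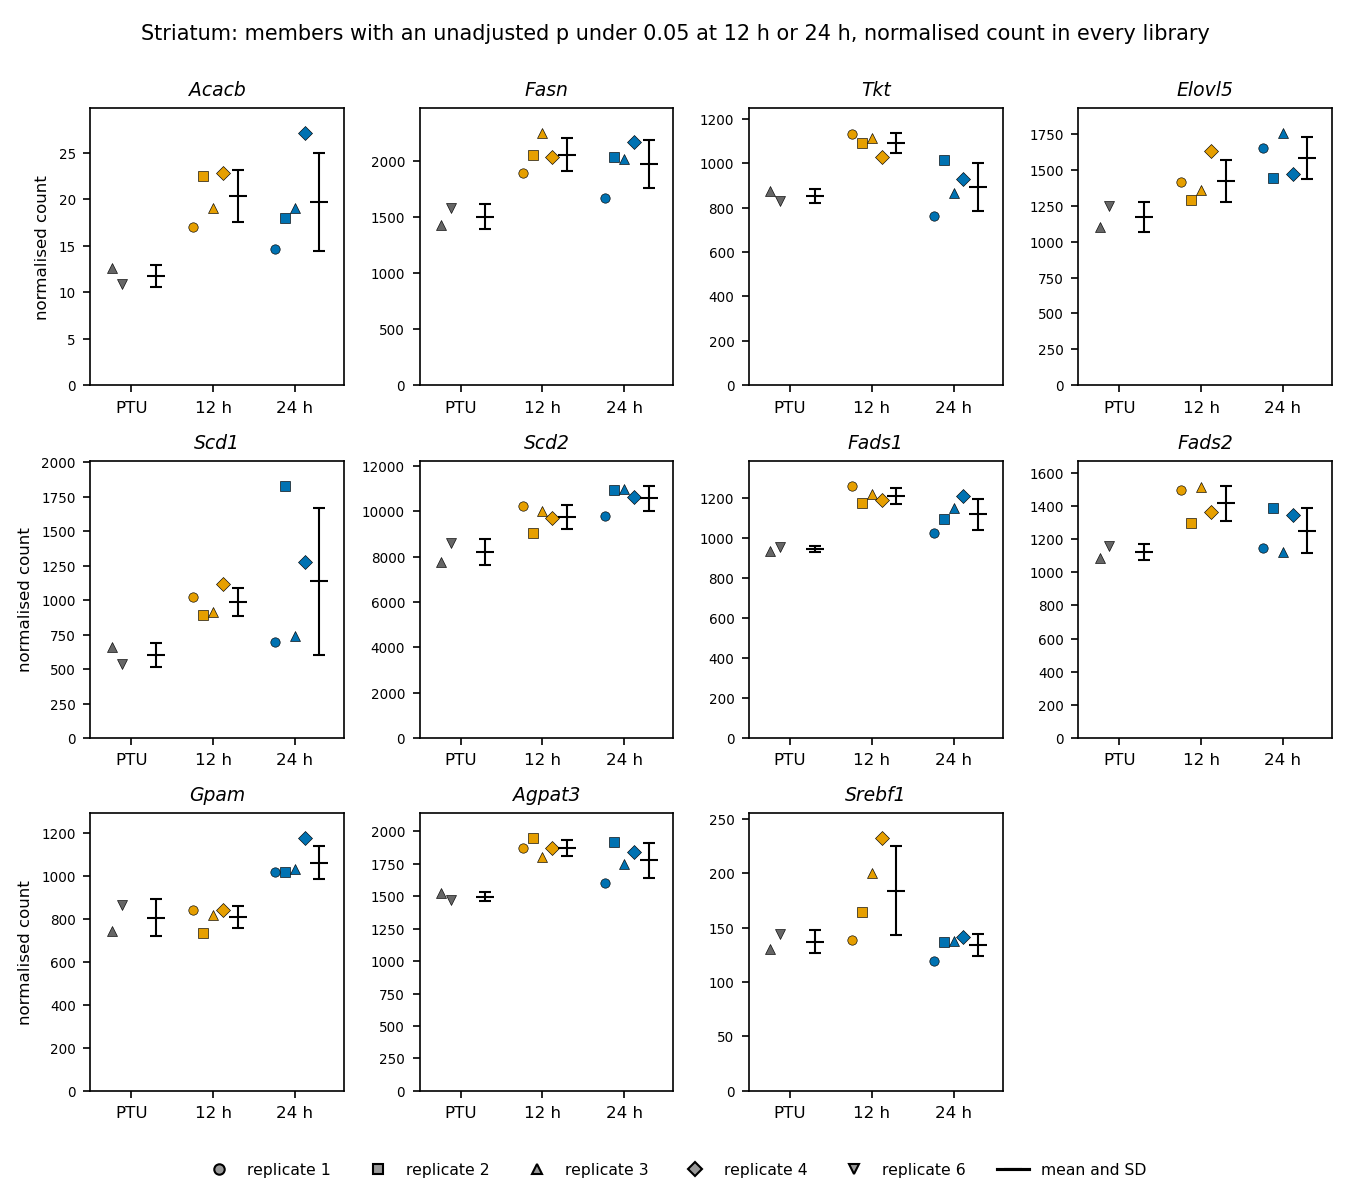
Normalised count (y axis, from 0) in each striatum library for the 11 members with an unadjusted p under 0.05 at 12 h or 24 h against PTU; symbols give the replicate number and the black mark the mean with its SD (n = 2 for PTU and 4 for the other groups). Fasn and Fads1 lie above both PTU libraries in all 8 libraries after TH, and 24 h replicate 2 (square) is the highest library for Scd1.

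Fasn in striatum was at 1426 and 1581 normalised counts in PTU, at 1888, 2047, 2246 and 2032 at 12 h and at 1668, 2034, 2014 and 2168 at 24 h. All 8 libraries after TH were above both PTU libraries. Its log2 change was 0.45 ± 0.12 at 12 h (edgeR, adjusted p = 0.0897) and 0.39 ± 0.12 at 24 h (adjusted p = 0.306). Fads1 went from 933 to 954 in PTU to 1173 to 1261 at 12 h and 1025 to 1209 at 24 h, again without overlap, with a log2 change of 0.36 ± 0.091 at 12 h, the lowest adjusted p of the members (0.0789, edgeR). Scd1 was at 664 and 539 in PTU, 1025, 894, 916 and 1117 at 12 h and 697, 1831, 744 and 1280.1 at 24 h. The highest Scd1 value was that of 24 h replicate 2, and replicates 1 and 3 at 24 h were close to PTU. Scd2 had a log2 change of 0.25 ± 0.10 at 12 h and 0.37 ± 0.10 at 24 h, and all libraries after TH were above PTU. Elovl5 had 0.28 ± 0.12 and 0.43 ± 0.12, also without overlap.

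Acly in striatum was at 832 and 998 in PTU, 916, 927, 896 and 868 at 12 h and 818, 805, 970.3 and 857 at 24 h, with all groups overlapping. Acaca was at 37.7 and 44.5, 58.5, 55.8, 44.4 and 47.3 and 33.2, 67.3, 41.7 and 60.2 in the same order, with all groups overlapping. Acacb, at 12.6 and 10.9 in PTU, 17, 22.5, 19.0 and 22.8 at 12 h and 14.7, 17.9, 19.0 and 27.1 at 24 h, was above PTU in all 8 libraries, at levels close to the limit for testing. Me1 was at 209 and 183 in PTU, 224, 245, 220.3 and 222 at 12 h and 223, 257, 201 and 254 at 24 h. Tkt was at 874 and 828, 1129, 1089, 1114 and 1027 and 760.5, 1015, 866 and 930.0 in the same order, above PTU in all libraries at 12 h and overlapping it at 24 h. None of the 5 was called at either time.

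The regulators in striatum gave no call. Mlxipl was at 28.3 and 52.4 normalised counts in PTU, 46.3, 54.8, 38.1 and 37.3 at 12 h and 29.3, 28, 51.2 and 52.2 at 24 h. Thrsp was at 71.3 and 66.3 in PTU, 45.3, 88.1, 52.6 and 41.0 at 12 h and 52.8, 126, 26.2 and 86.3 at 24 h, where replicate 2 was the highest and replicate 3 the lowest. Srebf1 was at 129.9 and 144 in PTU, 139, 164, 200.3 and 232 at 12 h and 119, 137, 138 and 141 at 24 h. All 3 overlapped between the groups. Thrsp and Mlxipl were at 26.2 to 126 normalised counts in every striatum library, and their log2 changes against PTU carried standard errors from 0.33 (Mlxipl) to 0.48 (Thrsp).

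For esterification in striatum, Gpam was at 745 and 868 in PTU, 844, 736, 818 and 843 at 12 h and 1019.5, 1020.2, 1035 and 1177 at 24 h. The 24 h libraries were above all others, with a log2 change of 0.40 ± 0.11 against PTU (edgeR, adjusted p = 0.201) and 0.39 ± 0.085 against 12 h (adjusted p = 0.136). Dgat1 was at 88.0 and 56.4 in PTU, 62.3, 64.6, 68.9 and 55.5 at 12 h and 49.9, 52.7, 65.5 and 52.2 at 24 h, and PTU replicate 3 was the highest of the 10 libraries. Dgat2 was at 645 and 704 in PTU, 722, 704, 658 and 519 at 12 h and 673, 504, 731 and 585 at 24 h. The members not given singly had log2 changes between -0.41 (Elovl7) and 0.51 (Pnpla3) at 12 h and between -0.38 (Agpat2) and 0.25 (Agpat3) at 24 h.

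Striatum 24 h replicate 2, with its low Drd2, was the highest of its group for 13 of 34 members (33.7% of all genes) and the lowest for 10 (34.0%). Without it, Agpat3, Fads1, Fasn and Tkt were called higher at 12 h and no member at 24 h. In the same fit the calls over all genes also increased, from 152 to 1257 at 12 h and from 55 to 115 at 24 h. That fit kept 24 h replicate 4, whose cortical and projection neuron sums also lay outside the PTU ranges. With the presence of Y-linked counts as a covariate, no member was called in any of the 3 comparisons. At 24 h this covariate and the time overlap, since all 4 libraries lacked Y-linked counts.

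At 24 h, the time sampled in both tissues, the response in WAT was compared with that in striatum by an interaction test over the 22 libraries and 13082 genes. All 4 striatum libraries at 24 h lacked Y-linked counts, and whether these animals had received PTU is not known. The test did not adjust for either. Of the 34 members tested, Dgat1 alone was called (2.94%, beside 5.34% of all genes, and 3.48% with the same sign), with a log2 change of -1.17 in WAT and -0.39 in striatum. At an unadjusted p under 0.05 there were 5 members, 14.7% beside 20.5% of all genes. The difference was -0.77 ± 0.22 (edgeR, adjusted p = 0.0495), at the edge of the threshold. It held in 3 of 22 fits that left out 1 library, and without striatum PTU replicate 6 the difference was -0.49 (adjusted p = 0.371).

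**Figure D5:**
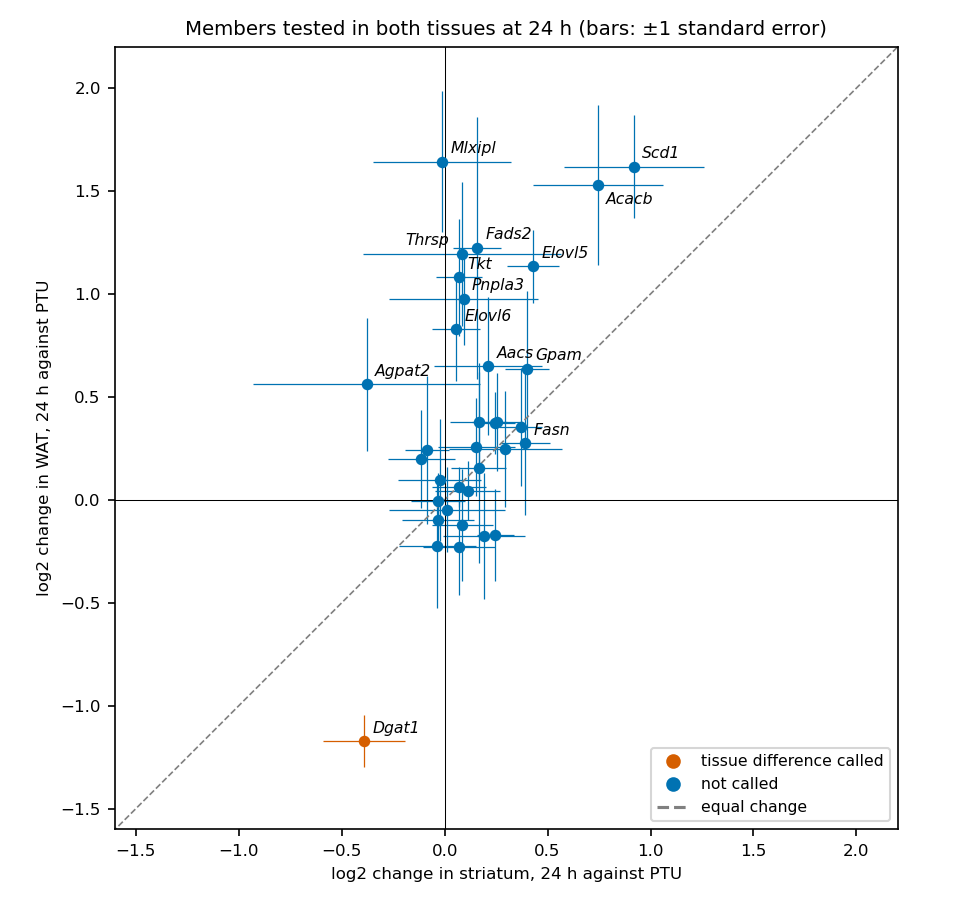
Log2 change at 24 h against PTU in striatum (x axis) and in WAT (y axis) for the 34 members tested in both tissues, each from the fit of its tissue; bars are 1 standard error and the dashed line marks equal change. Dgat1, the only tissue difference called, lies lowest, and Mlxipl, Thrsp, Tkt, Pnpla3 and Elovl6 lie near 0 in striatum and above 0.8 in WAT.

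Of the members that rose in WAT, none of those tested passed the test of a tissue difference. Scd3, below the mean in striatum, was not tested for it. Mlxipl differed by 1.67 ± 0.58 between the tissues (edgeR, adjusted p = 0.10), Tkt by 1.02 ± 0.36 (adjusted p = 0.105), Elovl5 by 0.72 ± 0.23 (adjusted p = 0.0757) and Scd1 by 0.71 ± 0.43 (adjusted p = 0.367). Fasn differed by -0.10 ± 0.45 and Scd2 by -0.0011 ± 0.36. Without WAT PTU replicate 1, Mlxipl, Tkt, Dgat1 and G6pdx were called, and without that library and WAT 24 h replicate 2 there were 8 calls, 7 of them higher in WAT. Over all genes, the 698 calls became 1099 and 1049 in these 2 fits. The earlier times, 6 h in WAT and 12 h in striatum, were not compared, since they differ.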

How the data were processed

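RNA was extracted with Trizol (WAT) or RNeasy (striatum), and libraries were made with a Lexogen SENSE total RNA kit and sequenced. The authors aligned reads to GRCm38/mm10 with Bowtie2 (2.2.6.2 in the submitters' processing notes), removed alignments of quality under 10 and deposited raw counts per gene made with HTSeq, 1 table per tissue. The annotation and strand setting used are not given in the sources used here. Rows whose symbols had turned into dates (14 in striatum, 15 in WAT, at most 0.201% of a library) were removed. Of the WAT symbols, 601 were updated to current names.

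Counts were fitted with edgeR 4.0.16 (R 4.3.3, TMM factors, two-sided quasi-likelihood F test, limma 3.58.1), all 3 groups of a tissue in 1 model, over genes with a mean normalised count above 10. Normalised counts are counts scaled by TMM-adjusted depth to the mean such depth of the tissue. Apart from the test of the tissue difference, the tables were normalised separately, and levels are not compared between tissues. Nor are levels compared between genes, since counts are not divided by length. The standard error is the log2 change divided by the square root of F. The tissue difference at 24 h was an interaction term over all 22 libraries, with 1 set of TMM factors computed over the symbols shared by both tables. DESeq2 1.42.0, other scalings, filters and groups, a replicate block, covariates and libraries left out in turn were alternatives. Scripts were tested on simulated data. The 36 members, the 43 other pathway genes and the marker lists were chosen with earlier results of these data known. Values per library are given for 10 members whatever their change and for members called against PTU with an absolute log2 change of 1 or more, and up to 3 other pathway genes are named in each direction, those with the largest change at 24 h in WAT. Pnpla3 and Fads2 were added after their values were seen.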

Additional observations from a re-analysis of the deposited data

Results flagged for a closer look

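In groups of 4 libraries, a library was set apart where its gap to the nearest of the others was a larger share of the group's range than Dixon's 95% critical value for 4 values. This held in 18 of 176 groups of 1 member each, where chance flags about 1 in 20, and the members of a library are not independent of each other.

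WAT PTU replicate 1 stood above the other PTU libraries for 4 members. It held 14890.0 normalised counts of G6pdx where the others held 4707 to 6427, 1456 of Mlx where they held 578 to 696, 78963 of Thrsp where they held 25794 to 32888, and 4228 of Mid1ip1 where they held 1245 to 1467. WAT 24 h replicate 2 stood below its group for 5 members. It held 28662 of Acly beside at least 57664, 7908 of Acss2 beside at least 11996, 10000.6 of Pgd beside at least 15017, 10731 of Agpat2 beside at least 25190.3, and 59027 of Thrsp beside at least 103439. The summed skeletal muscle genes were high in both libraries and higher still in PTU replicate 4, where the members were mostly low, and their part in these values was not tested.

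At 6 h in WAT, replicate 3 held 1476 normalised counts of Fads2 where the others held 167 to 213, and 4384 of Agpat3 where they held at most 3116. It also had the highest sum of stratified epithelium genes of the WAT libraries, 2945, whose part in these values was not tested. Replicate 4 held 11714 of Pnpla3 where the others held at most 9197.

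In striatum at 24 h, replicate 2, which has few counts of Drd2, held 324 normalised counts of Aacs where the others held at most 181, 17.9 of Agpat2 where they held at most 7.14, and 286 of Mlx where they held at most 222. It held 195 of Lpin1 where the others held at least 296. Gpam was at 1177 in 24 h replicate 4, beside at most 1035, and Me1 at 245 in 12 h replicate 2, beside at most 224.

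The response of Dgat1 at 24 h differed between the tissues by -0.77 on the log2 scale in the interaction test (edgeR, adjusted p = 0.0495). It was the only call among 34 members (2.94%, beside 5.34% of all genes). The call held in 3 of 22 fits that left out 1 library, and its adjusted p was 0.371 without striatum PTU replicate 6.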

How the results depend on the processing

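At 24 h in WAT, 10 members were called, and the planned settings other than leaving out a library gave 9 to 11. Leaving out 1 library gave 6 (without PTU replicate 2 or 24 h replicate 3) to 14 (without PTU replicate 1). At 6 h the count of 1 became 3 with DESeq2 or with total counts, 2 without the filter or above a mean of 50, 0 with the replicate block or the muscle covariate, and 0 to 7 with 1 library left out (7 without PTU replicate 1). From 6 h to 24 h the count of 5 became 10 with DESeq2 or the 2 groups alone, 8 without the filter, and 4 to 11 with 1 library left out (11 without PTU replicate 1). Without both PTU replicate 1 and 24 h replicate 2, chosen after the data were seen, the counts were 8, 19 and 14, and 8 for the tissue difference. Mlx at 24 h then went from -0.12 to 0.43 (edgeR, adjusted p = 0.0496). In striatum, 0 members at 12 h became 3 with DESeq2, 5 with the 2 groups alone and 0 to 4 with 1 library left out. DESeq2 called 1 member at 24 h and 1 between the times. The tissue difference, with 1 member called, gave 3 with DESeq2, 2 with total counts, 0 with relative log expression factors, without the filter, with the 4 groups alone or with the replicate block, and 0 to 4 with 1 library left out.

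Libraries with the same number were not shown to be paired, since their deviations correlated at -0.395 to 0.267 (6 pairs) in striatum and -0.472 to 0.394 (12 pairs) in WAT. The replicate block left 9 members called at 24 h in WAT, and striatum PTU replicate 6, which shares its number with no library, adds nothing to that fit. The cause of these changes was not tested.

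Over all genes the counts moved in both directions. At 24 h in WAT 3060 genes were called, with 1957 to 4264 over fits with 1 library left out and 2037 (the 2 groups alone) to 3768 (DESeq2) over the other settings. At 6 h the 1296 genes became 684 to 1898 and 834 (the 2 groups alone) to 2145 (DESeq2), and from 6 h to 24 h the 1329 became 661 to 2038 and 459 (muscle covariate) to 2444 (the 2 groups alone). In striatum the 152 genes at 12 h became 0 (without PTU replicate 3) to 1257 (without 24 h replicate 2) and 0 (replicate block) to 1442 (the 2 groups alone). The 55 at 24 h became 0 to 115 over the same libraries and 0 (the 2 groups alone) to 203 (DESeq2), and the 0 between the times up to 78 and 261 (DESeq2). The 698 of the tissue difference became 216 to 1099 and 81 (replicate block) to 1049 (both libraries left out).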
